A study of Mus musculus with 16 samples.

Results

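Ikzf1, Ikzf2, Mef2c, Satb1, Tcf4, Bcl11a and Ets1 encode transcription factors that steer blood progenitors towards lymphoid fates. These 7 genes were chosen by name, out of 52542 gene entries of the count tables, and all of them had a row in each of the 16 tables. They were followed over 16 libraries of single bone marrow cells and, within those libraries, over cells gated on transcripts of other genes that mark blood lineages. The cells were LSK cells (Lin-Sca1+Kit+), which include the blood stem cells and the multipotent progenitors of the marrow, from C57BL/6J mice. Fetal liver cells that were Regnase-1-/-Regnase-3-/- (CD45.2) had been mixed 1:1 with control ones (CD45.1) and given to lethally irradiated CD45.1/CD45.2 hosts, whose LSK cells were sorted at week 4. Each transcript was counted once by its unique molecular identifier (UMI) with MARS-seq, a plate method that reads the 3' end of the mRNA. All 16 libraries form 1 group in the labels, and no genotype or mouse is given for a library or a well in the sources used here, so the effect of Regnase loss was not analysed here. The comparisons are between cells of the same library that carried transcripts of different lineages.

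Ikaros, the product of Ikzf1, is a zinc finger protein that binds DNA at a short GGGAA core and is needed for B cells, and for much of T cell development, to arise. Ikzf2 encodes its relative Helios, which is known from stem and progenitor cells and from T cells. Mef2c encodes a MADS-box factor that favours lymphoid over myeloid choices in multipotent progenitors. Satb1 encodes a chromatin organiser that is needed for thymocyte development and promotes lymphoid specification. Tcf4 encodes E2-2, an E protein that binds E-box sites and drives plasmacytoid dendritic cell development. Bcl11a encodes a zinc finger repressor needed for early lymphoid progenitors, which also acts in stem cells and, in erythroid cells, represses fetal globin genes. Ets1 encodes the founder of the ETS family, which acts in B, T and natural killer cells.

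Promoters of Ikzf1 and Mef2c are shown because both genes were called higher in lymphoid-gated cells than in each of the 3 other gates tested. That held at the default filter on low counts, described below. At a lower minimum count Ikzf1, Satb1 and Tcf4 were called in all 3 comparisons, while Mef2c was not called over granule-gated cells (edgeR adjusted p = 0.0758). Each line gives 200 bases upstream of a RefSeq transcript start (GRCm38.p6, plus strand), 5′ to 3′, with the GGGAA core, which reads TTCCC on the other strand, in capitals.
Ikzf1 upstream start, chr11:11685725-11685924: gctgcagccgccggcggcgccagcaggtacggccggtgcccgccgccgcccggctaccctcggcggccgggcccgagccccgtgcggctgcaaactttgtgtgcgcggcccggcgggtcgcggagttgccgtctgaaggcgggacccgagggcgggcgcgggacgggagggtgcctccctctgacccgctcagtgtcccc
Ikzf1 downstream start, chr11:11689977-11690176: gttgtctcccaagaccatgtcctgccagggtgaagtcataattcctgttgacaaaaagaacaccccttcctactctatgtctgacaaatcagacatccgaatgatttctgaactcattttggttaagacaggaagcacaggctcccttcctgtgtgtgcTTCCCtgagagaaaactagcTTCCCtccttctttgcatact
Mef2c start, chr13:83503834-83504033: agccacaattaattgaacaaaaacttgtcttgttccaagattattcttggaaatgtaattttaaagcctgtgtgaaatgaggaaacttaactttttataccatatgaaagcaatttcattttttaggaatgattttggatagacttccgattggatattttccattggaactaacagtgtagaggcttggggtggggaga
The upstream Ikzf1 start, in a window with 79% G and C, had 0 cores, the downstream Ikzf1 start had 2, and the Mef2c start, the first of 3 in the table, had 0. Of 32851 promoter windows of the same length in the RefSeq table, 48.7% held at least 1 core on either strand. An E-box, written CANNTG and read alike on both strands, occurred 1 time in the Mef2c window and 0 times in both Ikzf1 windows, and 58.2% of all windows held at least 1. The table had windows for 4 of the 7 genes; those of Satb1 and Bcl11a and another Mef2c window overlap annotated exons and are not printed, and the remaining Mef2c window, also not printed, had 0 cores and 0 E-boxes.

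By the GENCODE annotation of mm10 (GRCm38), the 7 genes span 87.9 to 346 kilobases each. Ikzf1 lies on chromosome 11 (11685003 to 11772926, plus strand) and Bcl11a on the same chromosome (24078056 to 24174123, plus strand). Ikzf2 lies on chromosome 1 (69531214 to 69687245, minus strand), Mef2c on chromosome 13 (83504034 to 83667080, plus strand) and Satb1 on chromosome 17 (51736187 to 51833290, minus strand). Tcf4 lies on chromosome 18 (69343356 to 69689079, plus strand) and Ets1 on chromosome 9 (32636221 to 32757820, plus strand). Each of them except Mef2c overlaps other annotated genes. Those overlapping genes held 41 UMIs in all at Satb1, where 5 of 6 lie on the same strand, and 0 to 4 UMIs at each other member. The sources used here do not say whether counting used strand.

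Wells not listed as empty, with at least 500 UMIs and under 20% mitochondrial UMIs, counted as cells, which gave 5157 of them, 295 to 345 per library. All wells of a library together contained 521435 to 822534 UMIs, and its cells had a median of 1146 to 1993 UMIs. In earlier results of these data, libraries 1 to 8 and libraries 9 to 16 stood apart in their shares of myeloid cells, so values of both sets are given where they bear on a result. Sequencing batch SB341 held 9 libraries (2 to 10) and SB343 held 6 (11 to 16), while library 1 had no entry in the well table. In all 120 library pairs the gene counts differed by more than sampling noise (chi-square over its degrees of freedom 1.75 to 21.9) and 0 well names were shared, so each was counted as a separate library. Nothing says whether libraries share mice. The p-values measure how far differences between gates vary over libraries, and that spread may be technical. The LSK genes Kit, Ly6a, Cd34, Adgrl4 and Cd48 together stood at 1296 to 1656 CPM (a gene's UMIs scaled by all UMIs of the same cells). Of 12 markers of mature lymphocytes 9 had a UMI, 50 UMIs in all and 0 to 9.73 CPM over libraries. The defining markers Cd79a, Cd3e and Cd3d were at 0 UMIs, which allows up to 0.287 CPM each. Of 6 markers of plasmacytoid dendritic cells, Siglech and Klk1 were at 0 UMIs, and the list stood at 25.3 to 53.6 CPM, led by Rnase6 with 303 of its 410 UMIs.

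All 7 genes were found in every library, and together they held 7553 UMIs, 0.0724% of all UMIs. Their sum ranged from 540.0 CPM in library 15 to 853 CPM in library 3, with a median of 715 CPM. Since tags come from mRNA 3' ends, a level does not grow with gene length, but capture may differ between genes, so the order below is one of UMIs and not of expression. Mef2c had 1698 UMIs, with a median of 165 CPM over libraries, a lowest value of 107 CPM in library 15 and a highest of 206 CPM in library 1. Ikzf1 had 1573 UMIs and a median of 159 CPM, from 74.4 CPM in library 15 to 184 CPM in library 4. Both genes, and the sum, were thus lowest in the same library.

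Bcl11a followed with 1464 UMIs and a median of 136 CPM, from 107 CPM in library 9 to 167 CPM in library 5. Satb1 had 1123 UMIs and a median of 106 CPM, from 86.4 CPM in library 12 to 135 CPM in library 6. The spread of these 2 genes over libraries was close to what counting alone gives: the SD was 17.3 CPM for Bcl11a and 15.2 CPM for Satb1, beside 14.8 and 12.96 CPM from counting error. For Ikzf1 the SD was 28.7 CPM beside 15.3 CPM from counting error, and for Mef2c it was 26.2 CPM beside 15.8 CPM. Tcf4 had 1014 UMIs and a median of 99.1 CPM, from 65.8 CPM in library 10 to 142 CPM in library 3. Ikzf2 had 515 UMIs and a median of 48.6 CPM, from 21.3 CPM in library 14 to 72.2 CPM in library 3. Ets1 had 166 UMIs and a median of 14.02 CPM, from 6.30 CPM in library 6 to 33.6 CPM in library 4, and rested on 4 to 25 UMIs per library.

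For each of the 7 genes the ranges of libraries 9 to 16 and of libraries 1 to 8 overlapped. The overlap was narrow for Bcl11a, at 107 to 137 CPM in libraries 9 to 16 and 128 to 167 CPM in libraries 1 to 8, and for Tcf4, at 65.8 to 101 CPM and 95.1 to 142 CPM. Ikzf1 stood at 74.4 to 167 CPM in libraries 9 to 16 and 126 to 184 CPM in libraries 1 to 8, and Mef2c at 107 to 178 CPM and 142 to 206 CPM. Satb1 stood at 86.4 to 111 CPM and 96.4 to 135 CPM in the same order. Lymphoid-gated cells, described next, numbered 9 to 16 per library in libraries 9 to 16 and 18 to 35 in libraries 1 to 8. Their part in these levels was not tested, and the sources used here do not say what sets these libraries apart.

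**Figure D1:**
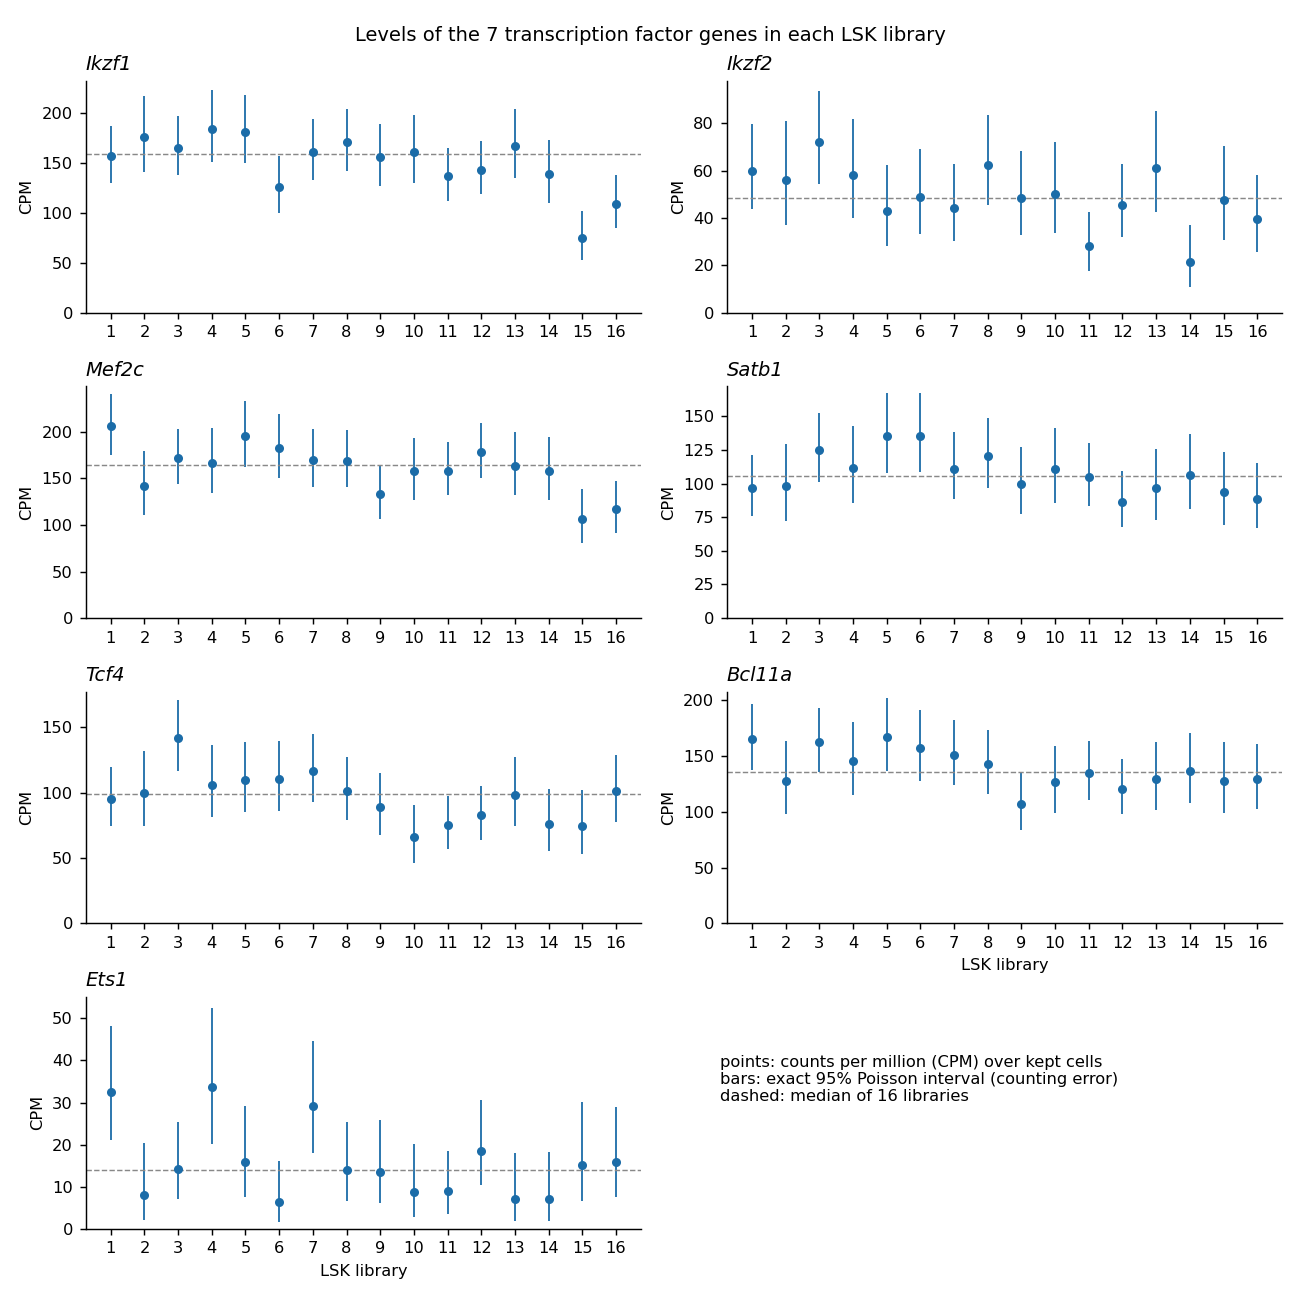
Levels of the 7 genes in each of the 16 LSK libraries, in CPM over kept cells (points) with exact 95% Poisson intervals for counting error (lines) and the median of the libraries (dashed). Ikzf1 and Mef2c were lowest in library 15, at 74.4 and 107 CPM, and Ets1 was at most 33.6 CPM.

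Per cell the 7 genes were sparse. A UMI of Ikzf1 was found in 21.3% of cells (95% Wilson interval 20.2% to 22.4%), of Mef2c in 21.0% (19.9% to 22.2%), of Bcl11a in 19.5% and of Satb1 in 15.8%. Tcf4 was found in 13.9% of cells, Ikzf2 in 7.74% and Ets1 in 2.35% (1.97% to 2.796%). The most UMIs of a member in a cell were 11, of Mef2c. No cell had UMIs of all 7 genes, 5 cells had UMIs of 6, and 40.2% of cells had none of them. With each cell thinned to 500 UMIs, so that depth is equal, 36 cells had both Ikzf1 and Bcl11a, 10.3% of the 350 cells with Ikzf1, against 6.20% with Bcl11a among cells without Ikzf1. Tcf4 was found in 6.17% of the 243 cells with Satb1 and in 3.72% of those without. Not every pair went this way. Satb1 was found in 4.57% of cells with Ikzf1 and in 4.72% of those without. Bcl11a was found in 5.37% of cells with Mef2c and in 6.56% of those without. These shares are descriptions of the pooled cells, with no test.

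Cells were then gated on genes outside the 7. The lymphoid gate asked for at least 4 UMIs in all of Dntt, Il7r, Rag1, Rag2, Ly6d, Igll1, Vpreb1 and Il12a. All but Il12a are genes of antigen receptor rearrangement and early B and T lineage cells. That gate was led by Dntt, which encodes terminal transferase, with 2319 UMIs in lymphoid-gated cells beside 167 of Il12a. The granule gate asked for at least 4 UMIs of Mpo, Elane, Ctsg, Prtn3 and Ms4a3, genes of neutrophil granules and their progenitors. The stem gate asked for at least 2 UMIs from at least 2 of Hlf, Mecom, Procr, Pdzk1ip1, Mycn, Fgd5, Ctnnal1, Slamf1, Vldlr and Hoxb5. A megakaryocyte and erythroid gate asked the same of Pf4, Itga2b, Gp1bb, Gp9, Gp5, Car1, Klf1, Epor, Ermap and Apoe, and a monocyte and dendritic gate the same of Irf8, Csf1r, Ly86, Cd74, F13a1, Ccr2 and Cx3cr1. Cells in several gates, 287 in all, were left out. This gave 306 lymphoid-gated, 576 granule-gated, 301 stem-gated, 243 megakaryocyte and erythroid-gated and 40 monocyte and dendritic-gated cells, with 3404 cells in no gate.

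A gate is a range cut from UMI counts, not a cell type. Of the lymphoid-gated cells 59 sat at the minimum of 4 UMIs, and 110 ungated cells were 1 UMI below it. Deeper cells pass a gate more easily: the median was 2296 UMIs in lymphoid-gated, 2767 in granule-gated, 1857 in stem-gated, 2231 in megakaryocyte and erythroid-gated and 1258.5 in ungated cells. Levels are therefore given as CPM, from UMIs summed per library and gate where a library had at least 10 gated cells. That held for 13 libraries in lymphoid-gated, 15 in granule-gated, 16 in stem-gated and 12 in megakaryocyte and erythroid-gated cells, and for 0 in monocyte and dendritic-gated cells. Within SB343 the lymphoid-gated sums came from libraries 13, 15 and 16 alone, and within libraries 9 to 16 from these and libraries 9 and 10. Results of these subsets therefore rest on few lymphoid-gated sums. Mature lymphocyte markers stood at 6.17 CPM (5 UMIs) in all lymphoid-gated cells together, and at 2.78 CPM in granule-gated, 6.14 CPM in stem-gated and 7.29 CPM in megakaryocyte and erythroid-gated cells. The plasmacytoid dendritic cell list stood at 38.2 CPM in lymphoid-gated cells, against 25.6, 36.8 and 36.5 CPM in the same 3 gates. Ccr9, which is in that list and is also a gene of early lymphoid progenitors, made up 18.5 CPM of it in lymphoid-gated cells.

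In lymphoid-gated cells Ikzf1, Satb1 and Tcf4 were higher than in at least 2 of the other gates, with or without a filter on low counts. Mef2c was called so only with a filter, and it lost all its calls at the default filter without library 10. Bcl11a was called higher than in granule-gated cells alone, and only with a filter. Ets1, tested over all libraries only with no filter, was called higher than in granule-gated cells alone. Ikzf2 was not called in any comparison. Counts were tested with edgeR's quasi-likelihood test, paired by library, with Benjamini-Hochberg adjustment over all genes tested. At edgeR's default filter on low counts (minimum count 10), 1053 genes were tested, of which only Ikzf1, Mef2c and Bcl11a were members. Of these 3, 2 rose against stem-gated cells and 0 fell, where 3.99% of all genes tested rose and 3.7% fell. Against granule-gated cells 3 rose and 0 fell, where 3.61% of all genes rose and 2.47% fell. Against megakaryocyte and erythroid-gated cells 2 rose and 0 fell, where 10.5% of all genes rose and 7.69% fell. The median log2 fold change of these 3 was 0.72, 0.99 and 0.84 in that order, beside 0.03, 0.02 and 0.04 over all genes tested. A gene that is high in a gate passes such a filter more easily. The calls and medians of these 3 members may therefore be raised by the filter. They do not describe all 7 and are not read as support.

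A lower minimum count of 3, added after the first fit to reach more members, tested 4764 genes and 6 members, all except Ets1. Against stem-gated cells 4 of 6 rose (1.41% of all genes rose, 1.15% fell), against granule-gated cells 4 of 6 (0.756% and 1.01%) and against megakaryocyte and erythroid-gated cells 4 of 6 (3.84% and 2.6%). In each comparison 0 of 6 fell and 5 of 6 had a log2 fold change above 0. With no filter on low counts, 19378 genes and all 7 members were tested, and 3, 2 and 3 members rose in the same order, where 0.403%, 0.165% and 0.939% of all genes rose. In that fit the median of all genes against granule-gated cells was -0.14, so changes there are shifted down by about that much. The lymphoid-gated sums are shared by the 3 comparisons, which are therefore not independent.

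**Figure D2:**
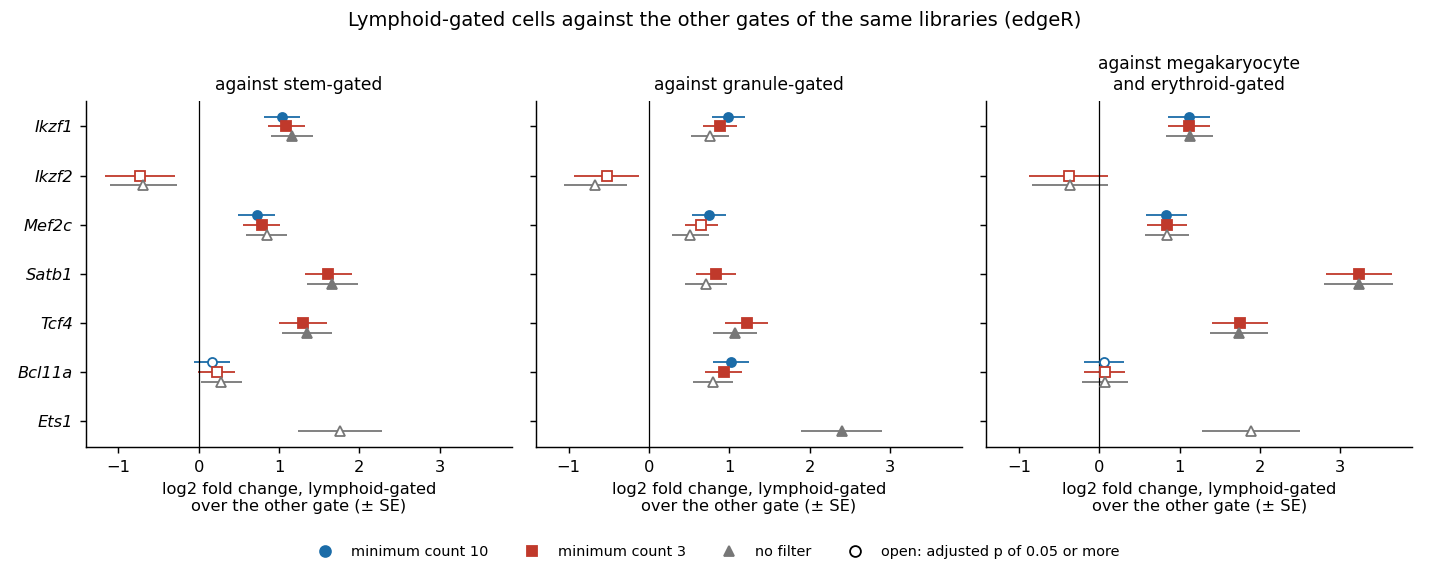
Log2 fold change (± SE) of each gene in lymphoid-gated cells over stem-gated (left), granule-gated (middle) and megakaryocyte and erythroid-gated cells (right), from edgeR at 3 filters on low counts; open symbols have an adjusted p of 0.05 or more. Ikzf1 stood near 1 in all 3 panels, Satb1 at 3.24 in the right one, Bcl11a near 0 except against granule-gated cells, and Ikzf2 below 0.

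Ikzf1, which encodes Ikaros, was higher in lymphoid-gated cells in every library pair. It stood at 148 CPM in the lowest, 227 CPM in the median and 429 CPM in the highest of the 13 lymphoid-gated sums. In granule-gated sums it stood at 29.8, 139 and 205 CPM, in stem-gated sums at 44.2, 123 and 299 CPM, and in megakaryocyte and erythroid-gated sums at 31.0, 91.4 and 254 CPM. The ranges overlapped, but within a library the lymphoid-gated sum was the higher in 13 of 13, 12 of 12 and 9 of 9 pairs with stem-gated, granule-gated and megakaryocyte and erythroid-gated sums. At the default filter, which may raise such changes, the log2 fold change over stem-gated cells was 1.04 ± 0.23 (SE, edgeR adjusted p = 0.000502). It was 0.99 ± 0.21 over granule-gated cells (adjusted p = 0.000476) and 1.12 ± 0.26 over megakaryocyte and erythroid-gated cells (adjusted p = 0.000631). Leaving out any of the 16 libraries kept all 3 calls, with adjusted p of at most 0.00401. With no filter on low counts the 3 changes were 1.16, 0.76 and 1.13 (edgeR adjusted p = 0.00217, 0.131 and 0.0111), so the call over granule-gated cells was lost. At the default filter the call over stem-gated cells was lost with the lymphoid and granule gates at 2 UMIs (0.68, adjusted p = 0.0868).

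Within batch SB341, at the minimum count of 10, the log2 fold changes of Ikzf1 were 0.85 over stem-gated (edgeR adjusted p = 0.0579), 0.94 over granule-gated (0.0272) and 1.40 over megakaryocyte and erythroid-gated cells (0.0120). Within SB343 only libraries 13, 15 and 16 had lymphoid-gated sums, and Ikzf1 was tested only at the minimum count of 3. The log2 fold changes there were 1.86 (edgeR adjusted p = 0.122), 1.34 (0.291) and 1.25 (0.201). In libraries 9 to 16 alone they were 1.72, 1.51 and 1.27 (adjusted p = 0.00545, 0.00998 and 0.0108), and in libraries 1 to 8 alone 0.72, 0.66 and 1.84 (adjusted p = 0.122, 0.177 and 0.00623). The direction was the same in each subset. Below the lymphoid-gated level, neighbouring gates did not differ in Ikzf1 beyond the spread over libraries. Granule-gated exceeded stem-gated sums by 10.9 CPM (exact paired permutation test over 15 libraries, adjusted p = 0.854). Stem-gated exceeded megakaryocyte and erythroid-gated sums by 6.90 CPM (12 libraries, adjusted p = 0.854, both over 21 neighbour pairs). Granule-gated sums were not tested against megakaryocyte and erythroid-gated sums.

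Its relative Ikzf2, which encodes Helios, did not follow it. In lymphoid-gated sums Ikzf2 stood at 0 CPM in the lowest, 18.3 CPM in the median and 171 CPM in the highest library, with 6 of 13 sums at 0 UMIs. Such a 0 allows 27.5 CPM in the deepest and 171 CPM in the shallowest lymphoid-gated sum. Granule-gated sums had 14.9, 50.6 and 88.9 CPM, stem-gated sums 0, 44.7 and 163 CPM, and megakaryocyte and erythroid-gated sums 13.3, 38.4 and 162 CPM. The lymphoid-gated sum was the lower in 9 of 13 pairs with stem-gated, 9 of 12 with granule-gated and 5 of 9 with megakaryocyte and erythroid-gated sums. At the minimum count of 3 the log2 fold change was -0.73 ± 0.43 over stem-gated (edgeR adjusted p = 0.530), -0.53 ± 0.41 over granule-gated (0.731) and -0.38 ± 0.49 over megakaryocyte and erythroid-gated cells (0.785). No order of its levels over the 4 gates could be given, since no neighbours differed (exact paired permutation tests, adjusted p = 0.854).

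Mef2c, the MADS-box factor, stood at 57.1, 231 and 643 CPM in the lowest, median and highest lymphoid-gated sum. Granule-gated sums had 83.3, 149 and 234 CPM, stem-gated sums 56.8, 139 and 274 CPM, and megakaryocyte and erythroid-gated sums 74.6, 139 and 253 CPM. The groups overlapped over most of their ranges apart from a single high sum. That sum, 643 CPM in lymphoid-gated library 10, came from 18 UMIs in 4 of 11 cells, and 11 of these UMIs were in the same cell. At the default filter Mef2c rose by 0.72 ± 0.23 on the log2 scale over stem-gated cells (edgeR adjusted p = 0.0368). There it rose by 0.75 ± 0.21 over granule-gated (0.0149) and 0.84 ± 0.26 over megakaryocyte and erythroid-gated cells (0.0148). It was the higher in lymphoid-gated cells in 10 of 13, 9 of 12 and 7 of 9 pairs.

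Without library 10 all 3 calls of Mef2c were lost, at 0.55, 0.60 and 0.55 (edgeR adjusted p = 0.173, 0.0781 and 0.147). Over stem-gated cells the call was also lost without library 2, 3, 5, 7, 8, 12, 15 or 16 (adjusted p = 0.0563 to 0.0971). It was lost in all 3 comparisons with no filter on low counts (0.84, 0.52 and 0.85; adjusted p = 0.0870, 0.559 and 0.103), and over granule-gated cells at the minimum count of 3 (0.65, adjusted p = 0.0758). At that minimum its call over stem-gated cells was lost without library 2, 3, 5, 7, 10, 12, 15 or 16 (edgeR adjusted p of at most 0.184). Its call over megakaryocyte and erythroid-gated cells was lost there without library 1, 6, 10 or 16 (adjusted p of at most 0.201). With RLE size factors in edgeR, or with DESeq2, it was not called there over stem-gated cells (adjusted p = 0.0694 and 0.0837). Over granule-gated cells both called it (adjusted p = 0.0203 and 0.0336). Within SB341 the log2 fold changes were 0.72, 0.69 and 1.01 (adjusted p = 0.211, 0.216 and 0.148), and within SB343 1.12, 1.00 and 0.85 (adjusted p = 0.372, 0.375 and 0.315). In libraries 9 to 16 alone, where it was tested only at the minimum count of 3, they were 1.38, 1.05 and 1.07 (adjusted p = 0.0719, 0.153 and 0.0729), and in libraries 1 to 8 alone, at the minimum count of 10, 0.41, 0.49 and 0.96 (adjusted p = 0.543, 0.390 and 0.183). The direction of Mef2c was the same in each of these fits. By an exact paired permutation test, lymphoid-gated exceeded granule-gated sums by 99.9 CPM (12 libraries, p = 0.0195, adjusted p = 0.0586).

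Satb1, the chromatin organiser, differed most between gates. Lymphoid-gated sums had 42.8, 180 and 408 CPM as lowest, median and highest. Granule-gated sums had 51.9, 90.6 and 178 CPM, stem-gated sums 0, 56.6 and 114 CPM, and megakaryocyte and erythroid-gated sums 0, 14.9 and 59.7 CPM, with 13 UMIs in all. The levels fell in this order without a tie: lymphoid-gated exceeded granule-gated sums by 100.02 CPM (12 libraries, exact paired permutation test, adjusted p = 0.0231), granule-gated exceeded stem-gated by 42.1 CPM (15 libraries, adjusted p = 0.0218) and stem-gated exceeded megakaryocyte and erythroid-gated by 38.4 CPM (12 libraries, adjusted p = 0.0359). Satb1 was the only member for which all 3 neighbouring gates differed beyond the spread over libraries; 6 of 21 neighbour pairs did so over all members.

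Satb1 fell short of the default filter, so its fold changes come from the minimum count of 3. Satb1 rose by 1.61 ± 0.29 on the log2 scale over stem-gated (edgeR adjusted p = 1.43e-05, higher in 12 of 13 pairs) and by 3.24 ± 0.41 over megakaryocyte and erythroid-gated cells (adjusted p = 8.36e-12, higher in 9 of 9 pairs). Both calls held without any of the 16 libraries and with no filter on low counts (1.67 and 3.23; adjusted p = 5.76e-05 and 5.08e-11). Over granule-gated cells the difference was 0.84 ± 0.25 (adjusted p = 0.0487, higher in 9 of 12 pairs). That call was lost without library 1, 2, 3, 4, 5, 6, 7, 12, 13, 14 or 16 (adjusted p = 0.0523 to 0.230) and with no filter (0.71, adjusted p = 0.350). Within SB341 the 3 log2 fold changes over stem-gated, granule-gated and megakaryocyte and erythroid-gated cells were 1.61, 0.68 and 2.804 (adjusted p = 0.00155, 0.551 and 0.000170). Within SB343 they were 2.001, 1.10 and 3.94 (adjusted p = 0.230, 0.577 and 3.92e-05). In libraries 9 to 16 alone they were 1.95, 0.74 and 3.19 (adjusted p = 0.0829, 0.644 and 2.34e-05), and in libraries 1 to 8 alone 1.51, 0.99 and 3.43 (adjusted p = 0.00187, 0.109 and 4.02e-05).

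Tcf4, which encodes the E protein E2-2, stood at 62.8, 180 and 386 CPM in the lowest, median and highest lymphoid-gated sum. Granule-gated sums had 25.3, 80.6 and 139 CPM, stem-gated sums 0, 59.0 and 163 CPM, and megakaryocyte and erythroid-gated sums 0, 59.2 and 104 CPM. The lymphoid-gated median was above the highest sum of each other gate, although the ranges overlapped. At the minimum count of 3 Tcf4 rose by 1.30 ± 0.30 over stem-gated (edgeR adjusted p = 0.00162, 11 of 13 pairs), 1.22 ± 0.27 over granule-gated (0.00164, 10 of 12 pairs) and 1.75 ± 0.35 over megakaryocyte and erythroid-gated cells (5.72e-05, 8 of 9 pairs). These calls held without any of the 16 libraries, with adjusted p of at most 0.0168, and with no filter (1.35, 1.07 and 1.74; adjusted p = 0.00320, 0.0274 and 0.000231).

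Within SB341 the log2 fold changes of Tcf4 were 1.05, 1.497 and 1.235 (edgeR adjusted p = 0.206, 0.00981 and 0.274), and within SB343 1.68, 0.97 and 2.04 (adjusted p = 0.322, 0.608 and 0.0275), in the order stem-gated, granule-gated, megakaryocyte and erythroid-gated. In libraries 9 to 16 alone they were 1.08, 1.00 and 1.68 (adjusted p = 0.551, 0.430 and 0.0340), and in libraries 1 to 8 alone 1.46, 1.41 and 1.69 (adjusted p = 0.00844, 0.0144 and 0.0602). Below the lymphoid-gated level, stem-gated and granule-gated sums differed by 6.48 CPM (15 libraries) and granule-gated and megakaryocyte and erythroid-gated sums by 19.2 CPM (12 libraries), neither beyond the spread over libraries (exact paired permutation tests, adjusted p = 0.854 and 0.583). Lymphoid-gated exceeded stem-gated sums by 98.5 CPM (13 libraries, adjusted p = 0.0359).

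Bcl11a, the zinc finger repressor, was set apart by its low level in granule-gated cells. Lymphoid-gated sums had 71.5, 152 and 349 CPM, granule-gated sums 22.7, 88.9 and 153 CPM, stem-gated sums 82.9, 157 and 243 CPM, and megakaryocyte and erythroid-gated sums 91.7, 172 and 375 CPM. Apart from the granule-gated sums, the groups overlapped over most of their ranges. At the default filter Bcl11a rose in lymphoid-gated over granule-gated cells by 1.02 ± 0.22 on the log2 scale (edgeR adjusted p = 0.000738, 10 of 12 pairs). Over stem-gated cells the difference was 0.17 ± 0.23 (adjusted p = 0.753) and over megakaryocyte and erythroid-gated cells 0.06 ± 0.25 (adjusted p = 0.895), with the higher sum on the lymphoid side in 6 of 13 and 5 of 9 pairs. Stem-gated exceeded granule-gated sums by 68.7 CPM, in 13 of 15 libraries (exact paired permutation test, adjusted p = 0.00513).

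The call of Bcl11a over granule-gated cells held at the default filter without any of the 16 libraries (edgeR adjusted p of at most 0.00691), and was lost with no filter on low counts (0.80, adjusted p = 0.161). Within SB341 the difference was 1.08 (adjusted p = 0.0318). Within SB343 it was 0.80 at the minimum count of 3 (adjusted p = 0.710). In libraries 1 to 8 alone it was 1.05 (adjusted p = 0.0266), and in libraries 9 to 16 alone, at the minimum count of 3, 0.76 (adjusted p = 0.597). At the minimum count of 3 it was 0.93 in all libraries (adjusted p = 0.00649) and was lost without library 3 (0.83, adjusted p = 0.0540).

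Ets1, the ETS family member, had the fewest UMIs of the 7. It had 46 UMIs in 306 lymphoid-gated, 17 in 576 granule-gated, 13 in 301 stem-gated and 10 in 243 megakaryocyte and erythroid-gated cells, and 56 in 3404 ungated cells. As levels these were 56.7, 9.45, 19.9, 14.6 and 10.9 CPM. Lymphoid-gated sums had 0, 63.0 and 189 CPM as lowest, median and highest, with 3 of 13 at 0 UMIs. The median sum of each other gate was at 0 CPM, with highest sums of 44.1 CPM in granule-gated, 189 CPM in stem-gated and 75.1 CPM in megakaryocyte and erythroid-gated cells. The high stem-gated sum was library 1, with 9 of the 13 UMIs. Tested with no filter on low counts, Ets1 rose by 2.40 ± 0.50 on the log2 scale over granule-gated cells (edgeR adjusted p = 0.00112, higher in 9 of 12 pairs and lower in 2). Over stem-gated cells the difference was 1.75 ± 0.52 (adjusted p = 0.0930) and over megakaryocyte and erythroid-gated cells 1.89 ± 0.61 (adjusted p = 0.0915). By the exact paired permutation test lymphoid-gated exceeded stem-gated sums by 40.9 CPM (13 libraries, adjusted p = 0.277).

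**Figure D3:**
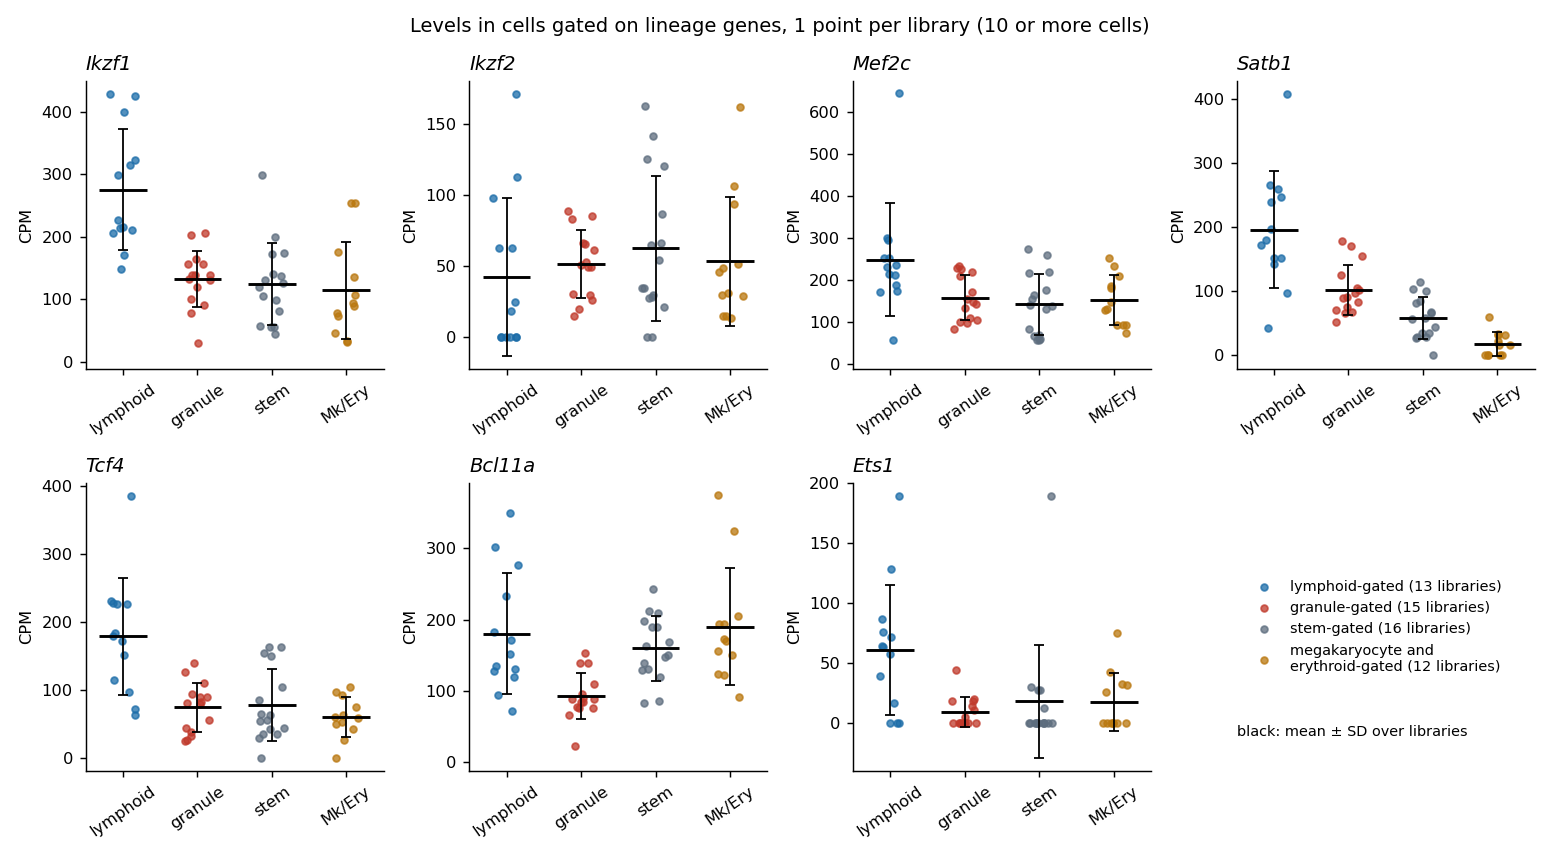
Levels of the 7 genes in CPM, with 1 point per library and gate (libraries with at least 10 gated cells) and the mean ± SD over libraries in black; Mk/Ery is the megakaryocyte and erythroid gate. Satb1 averaged 196 CPM in lymphoid-gated and 17.1 CPM in megakaryocyte and erythroid-gated cells, while Bcl11a was low in granule-gated cells alone.

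Since gated cells are deeper than others, shares of cells with a UMI were compared after thinning each cell to 500 UMIs. At least 1 of the 7 genes was then found in 40.5% of lymphoid-gated cells (95% Wilson interval 35.2% to 46.1%), against 21.7% of granule-gated (18.5% to 25.2%), 23.6% of stem-gated (19.1% to 28.7%), 25.1% of megakaryocyte and erythroid-gated (20.1% to 30.9%) and 26.8% of ungated cells (25.4% to 28.3%). Without thinning, 15.4% of lymphoid-gated cells had none of the 7, against 28.1%, 37.5%, 30.9% and 47.7% of the other groups in the same order. At least 2 of the genes were found in 7.84% of thinned lymphoid-gated cells and in 2.88% to 3.82% of thinned cells of the other 3 gates and of no gate. Ikzf1 was found in 12.4% of thinned lymphoid-gated cells and in 3.29% to 6.25% of the 3 other gates, and Satb1 in 8.497% and in 0.412% to 3.82%. For Satb1 in megakaryocyte and erythroid-gated cells, which had the lowest share, the interval was 0.0727% to 2.29%. For Mef2c the shares did not follow the sums: 9.15% of thinned lymphoid-gated cells had a UMI, against 5.90% of granule-gated, 8.64% of stem-gated and 10.7% of megakaryocyte and erythroid-gated cells, so no order is read from them. For Tcf4 the shares of lymphoid-gated and granule-gated cells lay close together, at 4.90% (2.99% to 7.93%) and 3.99% (2.68% to 5.92%), beside 3.97% of ungated cells, unlike its sums. After thinning 0 members passed the default filter, and no fold change could be tested there.

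**Figure D4:**
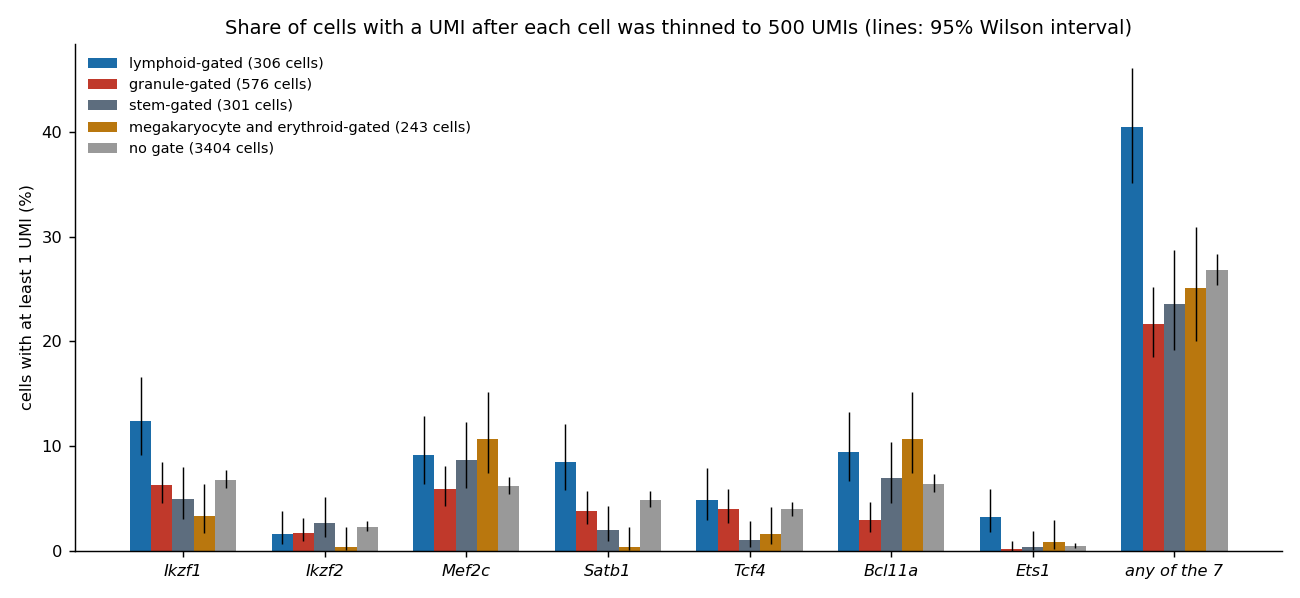
Share of cells with at least 1 UMI of each gene, and of any of the 7, after each cell was thinned to 500 UMIs, by gate, with 95% Wilson intervals (lines; counting error only). Any of the 7 was found in 40.5% of lymphoid-gated cells, above the 21.7% to 26.8% of the other groups shown.

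The gates cut a range, so the levels were also set out by the number of lymphoid-list UMIs in a cell, over cells in no other gate. This view was chosen after the data were seen and carries no test. In 2637 cells with 0 such UMIs Ikzf1 stood at 136 CPM (95% Poisson interval 124 to 148 CPM), in 489 cells with 1 at 156 CPM, in 278 cells with 2 to 3 at 185 CPM, in 189 cells with 4 to 7 at 290 CPM (240.2 to 346 CPM) and in 117 cells with 8 or more at 224 CPM (179.7 to 276 CPM). Satb1 stood at 88.3, 158, 158, 189 and 247 CPM in the same bins, Tcf4 at 86.2, 103, 139.8, 184 and 173 CPM, and Ets1 at 9.04, 12.98, 21.7, 40.7 and 73.9 CPM. Satb1 was thus above its lowest bin from the first lymphoid-list UMI on, while Mef2c stood at 132, 131, 256, 208 and 270.0 CPM, level over the lowest pair of bins. Bcl11a stood at 136, 142, 171, 158 and 237 CPM, and Ikzf2 at 54.5, 61.4, 59.1, 43.1 and 30.6 CPM. The median UMIs per cell were 1198 in the lowest and 3132 in the highest bin, and their part in these levels was not tested.

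**Figure D5:**
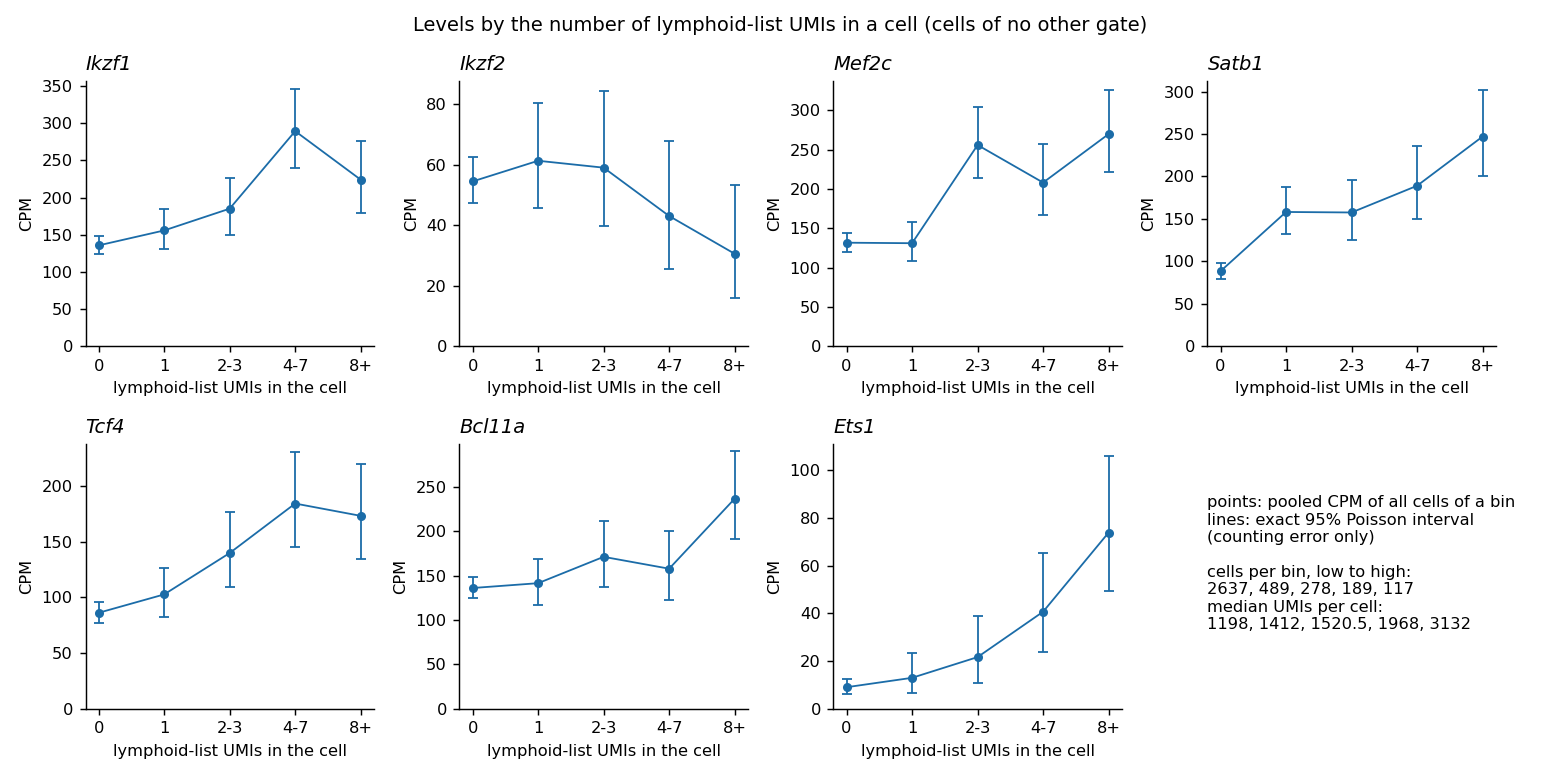
Pooled levels of the 7 genes in CPM (points, with exact 95% Poisson intervals as lines) by the number of lymphoid-list UMIs in a cell, for cells in no other gate. Ets1 stood at 9.04 CPM with 0 such UMIs and 73.9 CPM with 8 or more, and Ikzf2 at 54.5 and 30.6 CPM.

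Monocyte and dendritic-gated cells were too few for a test, with 40 cells and at most 8 in a library. Pooled, they had 252.5 CPM of Mef2c (24 UMIs), 231 CPM of Bcl11a (22 UMIs), 179 CPM of Ikzf1 (17 UMIs), 158 CPM of Satb1 (15 UMIs) and 105 CPM of Tcf4 (10 UMIs). Each of these intervals overlapped that of lymphoid-gated cells, which pooled to 238, 196, 258, 217 and 179 CPM. After thinning, at least 1 of the 7 genes was found in 37.5% of them (95% Wilson interval 24.2% to 53.0%) and at least 2 in 12.5% (5.46% to 26.1%), intervals that include the shares of lymphoid-gated cells. Ikzf2 and Ets1 were at 0 UMIs there, which allows up to 31.6 CPM each.

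Of 11 paralogs of the members, Ikzf3 (Aiolos) and Mef2b had 0 UMIs, Ikzf4 had 8 and Bcl11b 6 UMIs in all, and Tcf3, which encodes the E proteins E12 and E47, led with a median of 67.1 CPM. At the minimum count of 3, 3 of 11 were tested and 0 rose or fell in any of the 3 comparisons by edgeR, with 1 of 3 (Tcf12, over stem-gated cells) below an unadjusted p of 0.05. Of 12 subunits and partners of the NuRD and Sin3 repressor complexes, through which Ikaros acts, all were tested at that minimum and 0 changed in any comparison, with median log2 fold changes of -0.15, -0.17 and -0.02 over stem-gated, granule-gated and megakaryocyte and erythroid-gated cells. By edgeR 0 of 12 were below an unadjusted p of 0.05 as well. The most abundant of them, Rbbp7, Chd4 and Rbbp4, stood at 313, 233 and 254 CPM in lymphoid-gated cells and at 330, 295 and 241 CPM in stem-gated cells.

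Among 7 partners and inhibitors of E proteins, 4 were tested at the minimum count of 3. Lmo2, an adaptor of SCL complexes, fell by 0.53 ± 0.12 over stem-gated cells at the default filter (edgeR adjusted p = 0.00125). Tal1, which encodes SCL, fell by 1.95 ± 0.46 over megakaryocyte and erythroid-gated cells (adjusted p = 0.00111), at 28.4 CPM in lymphoid-gated and 128 CPM in megakaryocyte and erythroid-gated cells. The inhibitors Id1, Id2 and Id3 had 32, 91 and 3 UMIs in all and were not tested. Of 14 other lymphoid transcription factor genes, 4 were tested at the minimum count of 3. Foxp1 rose by 0.99 ± 0.29 over stem-gated cells (adjusted p = 0.0317) and Aff3 by 1.03 ± 0.30 over megakaryocyte and erythroid-gated cells (adjusted p = 0.0134), while Myb fell by 0.47 ± 0.15 over stem-gated cells at the default filter (adjusted p = 0.0433) and was not called at the minimum count of 3. Ebf1 and Pax5, factors of committed B lineage cells, had 11 UMIs and 1 UMI in all, and Lef1 and Spib had 0. Tcf7, which encodes the T cell factor TCF-1, had 35.8 CPM in lymphoid-gated cells and 0 CPM in granule-gated cells, called with no filter on low counts (adjusted p = 0.00242).

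Of 14 factors of other fates, 9 were tested at the minimum count of 3, of which 4 fell over stem-gated and 6 over megakaryocyte and erythroid-gated cells, 0 rose, and 0 changed over granule-gated cells. The log2 fold changes over stem-gated cells were -2.22 ± 0.34 for Zfpm1, the GATA partner FOG-1, -2.06 ± 0.39 for Gata2, -1.49 ± 0.32 for the stem cell homeobox gene Meis1 and -1.29 ± 0.24 for Nfe2 (edgeR adjusted p = 9.77e-08, 3.22e-05, 0.000594 and 3.17e-05). Over megakaryocyte and erythroid-gated cells they were -4.42 ± 0.75 for Gata1, the erythroid and megakaryocyte regulator, -3.21 ± 0.38 for Gata2, -3.16 ± 0.34 for Zfpm1 and -1.48 ± 0.36 for Meis1 (adjusted p = 9.69e-07, 3.69e-13, 1.13e-15 and 0.00169). Nfe2 and Fli1 also fell there. With no filter on low counts Gfi1 rose there by 4.47 ± 0.83 (edgeR adjusted p = 1.77e-05). It had 31 UMIs in lymphoid-gated and 0 in megakaryocyte and erythroid-gated cells, so the size of that change is uncertain.

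Of 12 surface and signalling genes of early lymphoid progenitors, 7 were tested at the minimum count of 3, of which 4 rose over stem-gated, 4 over granule-gated and 5 over megakaryocyte and erythroid-gated cells. Ighm, the immunoglobulin heavy chain gene, which is transcribed before rearrangement is complete, stood at 678.5 CPM in lymphoid-gated cells, against 185 CPM in granule-gated, 92.1 CPM in stem-gated and 23.3 CPM in megakaryocyte and erythroid-gated cells. Flt3, the cytokine receptor of lymphoid-primed progenitors, stood at 329 CPM, against 99.6, 61.4 and 13.1 CPM in the same gates. At the default filter Ighm rose by 2.78 ± 0.20, 1.71 ± 0.16 and 4.66 ± 0.29 over stem-gated, granule-gated and megakaryocyte and erythroid-gated cells (edgeR adjusted p = 1.22e-21, 3.5e-15 and 5.87e-26), and Flt3 by 2.40 ± 0.28, 1.80 ± 0.23 and 4.82 ± 0.43 (adjusted p = 5.23e-11, 4.61e-09 and 2.79e-16). Notch1, tested at the minimum count of 3, rose by 1.74 ± 0.43, 1.83 ± 0.39 and 4.48 ± 0.67 (adjusted p = 0.00409, 0.000979 and 1.99e-08). At the default filter Cd52 rose by 1.17 ± 0.24 over stem-gated cells (edgeR adjusted p = 0.00014), 0.79 ± 0.21 over granule-gated (0.00723) and 2.19 ± 0.30 over megakaryocyte and erythroid-gated cells (4.15e-09).

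The LSK identity genes moved between gates as well. At the default filter Kit and Adgrl4 fell over stem-gated cells, with log2 fold changes of -0.72 ± 0.23 and -0.68 ± 0.18 (edgeR adjusted p = 0.0341 and 0.00734; Kit was not called at the minimum count of 3), and Ly6a, which encodes Sca-1, rose by 1.16 ± 0.20 over granule-gated cells (adjusted p = 8.03e-06). Over megakaryocyte and erythroid-gated cells Cd34, Ly6a, Cd48 and Adgrl4 rose by 1.12 to 1.80 (adjusted p of at most 0.000615). Their part in the members' differences was not tested.

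Over 56 sums of a library and a gate, after taking off each library's mean, the likeness of other genes to each member was measured by Pearson's r of log2(CPM + 10) among 3325 genes with at least 50 CPM, as a description with no p. The sums share libraries, and the gates set much of their pattern. Satb1 was the member with the closest likeness: Ighm at r = 0.858, the histone variant gene H2afy at 0.789 and Plac8, a gene of lymphoid and myeloid progenitors, at 0.783. For Ikzf1 the closest were the stress-response gene Sesn1 (0.677), Ctr9 (0.675), a subunit of the PAF1 elongation complex, and Gm6472 (0.620). For Mef2c they were Mta3 (0.606), Dyrk1a (0.582) and Mrpl28 (0.566), and for Tcf4 Ppp1r18 (0.591), Mgat1 (0.585) and Gm3788 (0.578). For Bcl11a they were Tsc22d1 (0.554), H2-Q7 (0.535) and Smarcd2 (0.507), for Ikzf2 Tuba4a (0.591), Gm5620 (0.537) and Foxn3 (0.534), and for Ets1 Gm3788 (0.574), Cxxc1 (0.528) and Crip1 (0.509). Values near 0.5 to 0.6 among 3325 genes of sparse counts are not read as a shared pattern.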

How the data were processed

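Single LSK cells from 16 libraries of 384 wells were measured by MARS-seq. The deposited values are molecule (UMI) counts per gene and well, not normalized, with bcl2fastq 2.15.0.4 and mm10 named in the submitters' processing notes, and with aligner, counter and annotation not given in the sources used here. From the counts, 92 spike-in entries were left out, and wells listed as empty, with under 500 UMIs or with 20% or more mitochondrial UMIs were removed. No doublet caller was run; cells in several gates were left out. The members, gates and lists were chosen with earlier results of these data known. UMIs were summed per library and gate (at least 10 cells) and tested with edgeR 4.0.16 (R 4.3.3; TMM, filterByExpr minimum count 10, library as a block, Benjamini-Hochberg at 0.05); gate genes stayed in the sums but were not tested. DESeq2 1.42.0 was an alternative. Gate order used exact two-sided paired permutation tests over libraries. Library numbers follow accession order, and the block pairs sums of the same library, which is what ties them. The edgeR fit was tried on simulated counts drawn from the sums. Named genes were the 7 members, for each other list up to 4 called genes of largest change per comparison, and the 3 genes most alike to each member; list genes named beside these, such as Fli1, Rbbp7 or Ebf1, were chosen after their values were seen. Single values of some list genes are not reported here. Intervals and limits from a count of 0 (3 UMIs) cover counting error only. Tables were read with Python 3.11.15, numpy 2.4.6, pandas 2.3.3 and scipy 1.17.1.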

Additional observations from a re-analysis of the deposited data

Results flagged for a closer look

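Wells outside the kept cells also held transcripts of the 7 genes. The 841 wells with under 500 UMIs that were not listed as empty had 143 UMIs of them, 648 CPM (exact 95% Poisson interval 546 to 764 CPM). The 86 wells with 20% or more mitochondrial UMIs had 53 UMIs of them, 529 CPM (397 to 692 CPM). In the 60 wells listed as empty, which held 801 UMIs in all, 0 UMIs of the 7 genes were found, and a count of 0 there allows up to 3745 CPM, so that no lower level can be read from them.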

How the results depend on the processing

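At the minimum count of 10 the members called over stem-gated cells, 2 in the fit reported, were 4 at a minimum count of 3, 1 with no library block (no replicate block), with gates raised by 1 UMI, at a cell minimum of 1000 UMIs, with gate genes out of the sums, within SB341 and in libraries 9 to 16 alone, and 0 within SB343, after thinning, and with the lymphoid and granule gates at 2 UMIs (1 of 3 below an unadjusted p of 0.05 by edgeR). Over granule-gated cells, 3 as reported, they were 1 in libraries 9 to 16 alone and 0 within SB343 and after thinning. Over megakaryocyte and erythroid-gated cells, 2 as reported, they were 4 at a minimum count of 3, 1 with gates raised by 1 UMI, with gates at 2 UMIs and in libraries 9 to 16 alone, and 0 within SB343 and after thinning. Thinning left 0 members tested and SB343 left 1, Mef2c, below an unadjusted p of 0.05 over stem-gated and granule-gated cells. Leaving out 1 library gave 1 to 2, 2 to 3 and 1 to 2 members in the 3 comparisons.

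At the minimum count of 3, with 4 called in each comparison, libraries 1 to 8 alone gave 2, 1 and 2, SB341 gave 1, 2 and 2 and SB343 0, 0 and 2 over stem-gated, granule-gated and megakaryocyte and erythroid-gated cells; libraries 9 to 16 alone gave 1 over stem-gated and 1 over granule-gated cells. By edgeR, 5 and 4 of 7 members in SB343 were below an unadjusted p of 0.05 over stem-gated and granule-gated cells. Thinning left 1 member tested, Mef2c, so the 0 called in each comparison says nothing of the other members. Mef2c over megakaryocyte and erythroid-gated cells then turned to -0.15 (edgeR adjusted p = 0.964). Leaving out 1 library gave 3 to 4, 2 to 5 and 3 to 4. Where no construction shows it, the cause was not tested. DESeq2 and RLE size factors called as many members as edgeR with TMM at the minimum count of 10. At the minimum count of 3 each of them called 3, 5 and 4 members over stem-gated, granule-gated and megakaryocyte and erythroid-gated cells. The median of Tcf4 was 79.5 CPM within SB343, against 99.1 CPM over all libraries. The planned test against monocyte and dendritic-gated cells was not run, since 0 libraries had 10 such cells. Depth limits Ets1 and Ikzf2 most: a count of 0 in 1 library's lymphoid-gated sum allows up to 27.5 to 171 CPM.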
